A study of Sus scrofa with 13 samples.

Results

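Positive acute phase protein genes were followed in RNA from pig liver. The set was defined by name, as the rows of the raw count table carrying the symbols ITIH4, ITIH3, CRP, LBP, ORM1, STAT3, IL6R or IL1R1. Of these 8 names, 7 matched 1 row each, out of 35670 genes in the table. ORM1 had no row under that symbol and was not analysed here. All 7 rows passed the filter on low counts, which kept 16481 genes for testing. The set holds 4 genes of secreted plasma proteins (ITIH4, ITIH3, CRP and LBP), 2 receptor genes (IL6R and IL1R1) and the gene of the transcription factor STAT3.

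The acute phase response is a change in the plasma proteins that the liver secretes after injury or infection. Interleukin-1 and interleukin-6, released by macrophages and other cells, act on hepatocytes through IL1R1 and IL6R; the interleukin-6 receptor activates STAT3, which drives transcription of many of these proteins. Proteins that rise are called positive and proteins that fall, such as albumin and transthyretin, negative. The inter-alpha-trypsin inhibitor heavy chain ITIH4 is the major acute phase protein of the pig, in which CRP rises as well, and LBP carries bacterial lipopolysaccharide to CD14 and TLR4.

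The 13 libraries came from livers of female Yorkshire pigs in 4 groups. Baseline liver, with neither ischemia nor reperfusion, gave 2 libraries, numbered 1a and 2, and which pigs they were taken from was not stated in the sources used here. The paper describes liver biopsies both before the blood flow was clamped and at 6 h of reperfusion. A baseline library may thus share its pig with a reperfused one, while the tests treated the groups as independent. Ischemic controls (3 libraries) had 45 min of clamping of all hepatic blood flow followed by 6 h of reperfusion, without infusion. Livers of the arterial and portal infusion groups (4 libraries each) had this ischemia and reperfusion too, and were given human bone marrow mesenchymal stromal cells at 3 M (mega) per kg, by way of the hepatic artery or of the portal vein. Every group other than baseline therefore carried the ischemia and the 6 h of reperfusion, and baseline livers differ from the 11 reperfused livers in the time of sampling as well. The age of the pigs was not given. The labels do not say whether replicates were separate animals, but the paper describes the sequenced reperfused livers as 1 sample per pig. For the 2 baseline libraries this was not stated, and where replicates are not separate animals p-values measure only the spread between samples.

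Total counts ran from 18975413 to 35949178 per library, with a median of 30260803. All 10 hepatocyte markers were above 0 in every library, albumin among them, and their summed level ran from 31547 to 91064 CPM (counts divided by the total of the library, on a scale of 1e+06). A principal component analysis of the 500 most variable genes, with the acute phase genes left out, put 4 libraries on the positive side of component 1, which held 63.7% of the variance. These were ischemic control 2, arterial infusion 1, portal infusion 1 and portal infusion 4, at 25.0 to 52.7, while the other 9 libraries lay between -27.6 and -3.27. In the same order the 4 libraries had total counts of 18975413, 30260803, 20563848 and 21444917. Ischemic control 2, portal infusion 1 and portal infusion 4 thus had the lowest totals of all libraries. The part of library depth in component 1 was not tested. For the 7 genes, fitted differences are given with and without these 4 libraries. Levels below are normalized counts, that is counts divided by the size factor of the library, and fold changes are log2 values fitted by edgeR. A level here does not take gene length into account, so levels were not compared between genes.

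None of the 7 genes differed between groups by edgeR's quasi-likelihood test at an adjusted p of 0.05, in any of 6 comparisons or in the test for any difference among the 4 groups. By the same test 0% of the 16481 genes were called in each of these 7 tests. Against baseline, 5 of the 7 genes had lower fitted levels in ischemic controls and 2 had higher ones, with a median log2 fold change of -0.64 beside 0.00 over all genes tested. The 5 lower ones were ITIH4, ITIH3, LBP, STAT3 and IL1R1, and the 2 higher ones CRP and IL6R. The same split of 5 and 2 was found for all 11 reperfused livers against baseline, a comparison that shares both its baseline libraries and its controls with the first. At an unadjusted p below 0.05 edgeR had 1 of the 7 genes, IL1R1, in 1 of the 6 comparisons, and over all genes between 258 and 787 genes in a comparison. DESeq2, fitted on all 13 libraries, called none of the 7 genes and between 0 and 15 genes of the whole table in a comparison. Fitted on the libraries of controls and baseline alone, DESeq2 called 169 genes, or 1.07% of those it tested, and again none of the 7.

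ITIH4 took between 0.902% and 2.00% of all counts of a library. Its gene lies on chromosome 13 of Sscrofa11.1 at 34928455 to 34948250, where another RefSeq gene model overlaps it and the non-directional libraries cannot tell their shared reads apart. Normalized counts were 394642 and 507921 at baseline, and 463613, 564332 and 247789 in ischemic controls 1, 2 and 3. They were 307563, 447572, 568268 and 230173 after arterial infusion, and 362177, 500758, 510334 and 525498 after portal infusion. The 4 groups overlapped throughout, both the lowest and the highest level of ITIH4 being found after arterial infusion. Means were 451282 ± 80100.4 at baseline (SD, n = 2), 425245 ± 161722 in controls (n = 3), 388394 ± 149916 after arterial (n = 4) and 474692 ± 75698 after portal infusion (n = 4). The log2 fold change of controls against baseline was -0.09, with a 95% confidence interval from -1.31 to 1.12 (adjusted p = 0.997, edgeR), and the value was -0.32 without the 4 libraries apart. Any difference inside this interval is compatible with these libraries, and the interval is not a limit of detection.

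ITIH3 encodes another heavy chain of the same family, and its gene lies next to ITIH4 at 34911104 to 34924881, with 3573 bases between the annotated genes. Its level was 70555 and 86037 in the baseline libraries. In ischemic controls it was 41302, 57911 and 38697, after arterial infusion 43131, 34302, 53866 and 36440, and after portal infusion 39867, 66521, 60183 and 41216. Both baseline libraries thus stood above all 11 reperfused livers, the nearest being portal infusion 2. The log2 fold change was -0.78 ± 0.46 (SE) in controls against baseline and -0.77 ± 0.37 in all reperfused livers against baseline, with adjusted p of 0.978 and 0.860 by edgeR. An exact two-sided permutation test over the samples gave p = 0.0128 for the second comparison, the smallest p that 2 against 11 libraries allow, as 1 of 42 such tests on these genes. Without the 4 libraries that stand apart the values were -0.95 and -0.71. The direction of ITIH3 and its lack of overlap with baseline held on all 3 scales, namely size factors, TMM (the trimmed mean normalization of edgeR) and plain CPM. Lower RNA in a bulk sample can come from fewer cells of a type or from less RNA per cell, which cannot be told apart here.

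The reads of ITIH3 were also set against those of ITIH4 in the same library, a ratio that needs no normalization between libraries and that was chosen after the values were seen, so it was not tested. There were 17.9 and 16.9 ITIH3 reads per 100 ITIH4 reads at baseline. The ratio was 8.91, 10.3 and 15.6 in controls, 14.0, 7.66, 9.48 and 15.8 after arterial infusion, and 11.01, 13.3, 11.8 and 7.84 after portal infusion. Baseline and reperfused livers did not overlap, at 17.4 ± 0.664 (SD, n = 2) and 11.4 ± 2.93 (n = 11). ITIH1, which lies 4725 bases before ITIH3 at 34892335 to 34906378, gave 12.996 and 10.06 reads per 100 ITIH4 reads at baseline and 6.25 to 13.9 in reperfused livers, which overlapped.

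**Figure D1:**
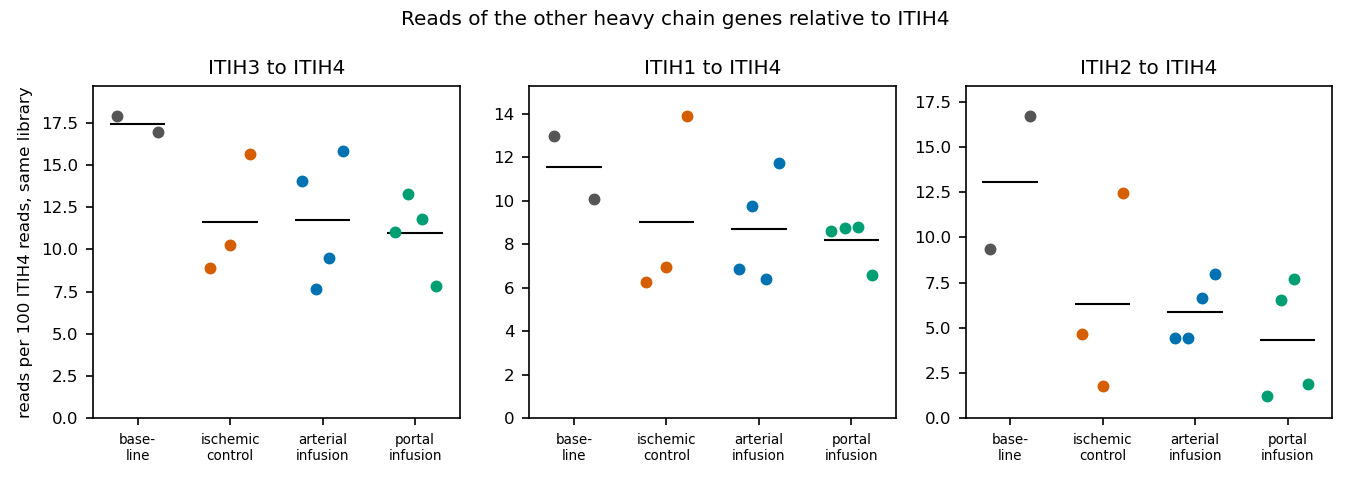
Reads of ITIH3, ITIH1 and ITIH2 per 100 reads of ITIH4 in the same library (linear y axes from 0), by group, 1 point per library and a line at the group mean. For ITIH3 both baseline points (17.9 and 16.9) lie above all 11 reperfused livers, while for ITIH1 and ITIH2 the groups overlap.

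CRP, C-reactive protein, binds phosphocholine on bacteria and damaged cells. Its normalized counts were 59739 and 28660 at baseline, and 59804, 66311 and 70551 in ischemic controls. They were 65171, 39256, 39773 and 64382 after arterial infusion, and 36742, 65937, 45568 and 67159 after portal infusion. The baseline libraries differed from each other by 2.08 fold, which is more than the whole range of the 3 controls (1.18 fold), and baseline 1a was nearly level with control 1. The log2 fold change of controls against baseline was 0.56 ± 0.51 (adjusted p = 0.978, edgeR; exact permutation p = 0.1, the smallest that 2 against 3 libraries allow). It was 1.20 without baseline 1a and 0.09 without baseline 2, so its size rested on which baseline library was kept. It was 0.57 without the 4 libraries apart. All 3 controls were above both baseline libraries by normalized counts and by TMM, but on plain CPM the groups overlapped. RefSeq lists 2 genes named CRP on chromosome 4, and the counted row could not be assigned to either of them.

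LBP lies on chromosome 17 at 41398935 to 41429467. Its level was 15149 and 14097 at baseline, and 12110, 3178 and 9101 in ischemic controls. After arterial infusion it was 3274, 9303, 11738 and 7172, and after portal infusion 2605, 13793, 12286 and 4349. Baseline lay above every reperfused liver by normalized counts, though portal infusion 2 came within a few percent of baseline 2 and the groups overlapped under TMM. LBP spanned 5.81 fold over the 13 libraries, the spread within each reperfused group being at least 3.59 fold. Its log2 fold change was -0.83 ± 0.75 in controls against baseline and -0.85 ± 0.60 in all reperfused livers against baseline (adjusted p of 0.978 and 0.863, edgeR). Without the 4 libraries apart it was -0.45 and -0.40. Without control 2 alone the first value was -0.43, and without control 1 it was -1.27.

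**Figure D2:**
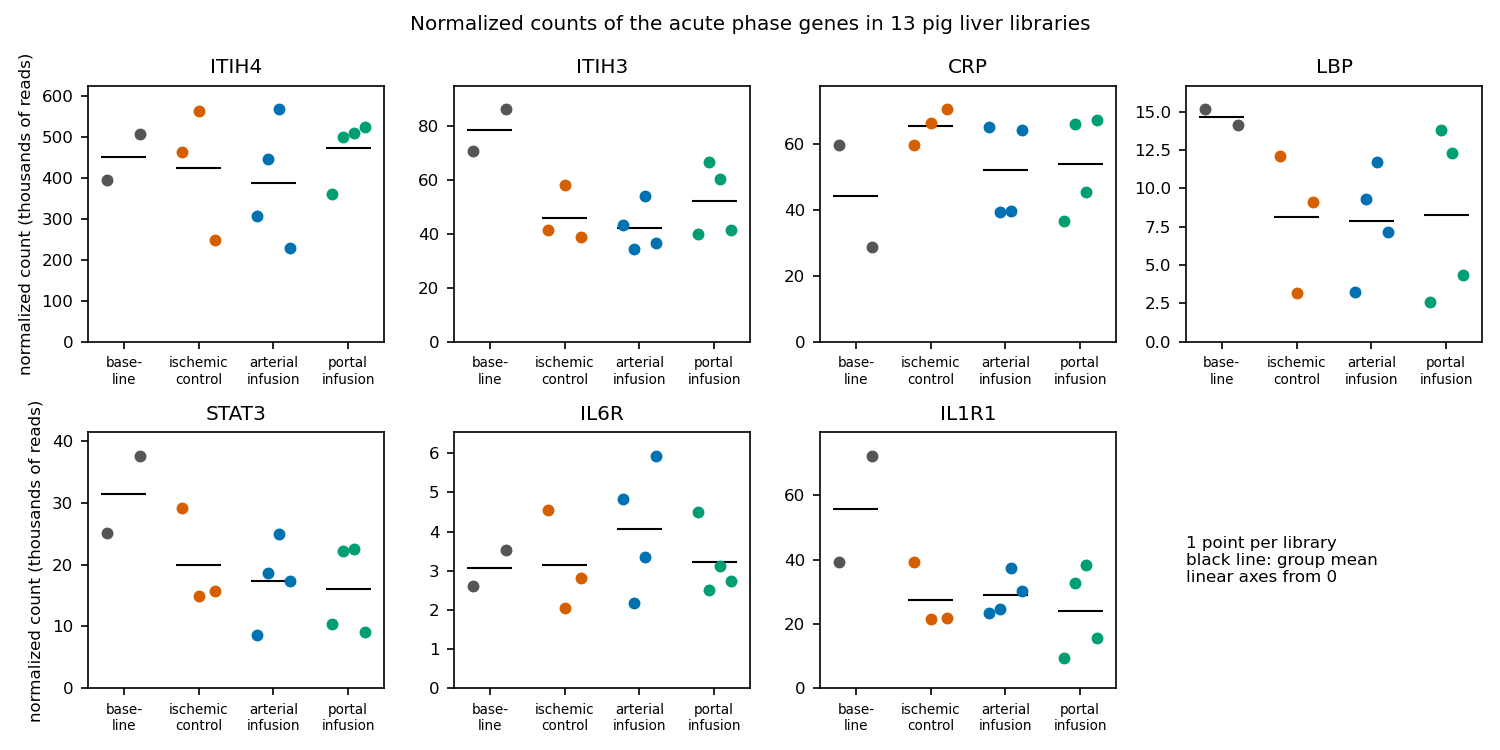
Normalized counts (in units of 1000 reads, linear axes from 0) of the 7 acute phase genes in the 13 libraries by group, 1 point per library and a black line at the group mean. Both baseline points lie above all others for ITIH3 and LBP, while the groups overlap for ITIH4 and IL6R.

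Of all genes tested, 16.3% were lower in every control than in both baseline libraries and 14.8% were higher. Among the 7 acute phase genes, 2 were lower in this way (ITIH3 and LBP) and 1 was higher (CRP). For all 11 reperfused livers against baseline the background was 3.97% lower and 3.3% higher, and of the 7 genes 2 were lower, again ITIH3 and LBP, and none higher. IL1R1 joined them in both comparisons on plain CPM only.

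The receptor gene IL6R, on chromosome 4 at 95322426 to 95381393, encodes the ligand-binding chain of the interleukin-6 receptor. Its level was 2621 and 3528 at baseline and 4561, 2051 and 2803 in controls. It was 4833, 2179, 3357 and 5935 after arterial infusion, and 4491, 2506, 3126 and 2732 after portal infusion. The groups overlapped, with both baseline values inside the range of the controls. The log2 fold change of controls against baseline was 0.05 ± 0.49, and it was -0.37 without control 1 and 0.29 without control 2, so its sign rested on single libraries. The value was 0.28 without the 4 libraries apart.

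STAT3, on chromosome 12 at 20407316 to 20471091, gave 25154 and 37618 normalized counts at baseline. Controls had 29234, 14870 and 15765, arterial livers 8593, 18709, 25033 and 17384, and portal livers 10391, 22171, 22517 and 9059. Baseline 2 was the highest of all libraries, but control 1 lay above baseline 1a. The fitted change was -0.64 ± 0.59 in controls and -0.82 ± 0.47 in all reperfused livers against baseline on the log2 scale (adjusted p of 0.978 and 0.860, edgeR). These were -0.46 and -0.51 without the 4 libraries apart. The first was -1.06 without control 1 and -0.36 without baseline 2.

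IL1R1, the signalling receptor for interleukin-1, lies on chromosome 3 at 52192912 to 52334734. Its counts were 39075 and 72220 at baseline and 39152, 21661 and 21768 in controls. Arterial livers had 23431, 24738, 37333 and 30297, and portal livers 9555, 32847, 38405 and 15489. Only control 1 reached the lower baseline value, which it passed by a margin far below the spread between baseline libraries. All 11 reperfused livers against baseline gave a log2 fold change of -1.05 ± 0.48, with a confidence interval from -2.07 to -0.02. The unadjusted p was 0.0456 and the adjusted p 0.860 by edgeR, and the exact permutation p was 0.0641. IL1R1 was the 1 gene of the 7 with an unadjusted p below 0.05 in this comparison, beside 4.78% of all genes tested. Leaving out baseline 2 brought the value to -0.59, and leaving out the 4 libraries apart to -0.77. Endothelial markers (9 of 10 in the table, 8 of them above 0 in every library) summed to 619 and 636 CPM in the baseline libraries, 318 to 530 in controls, 288 to 778 in arterial and 246 to 379 in portal livers. Their part in the level of IL1R1 was not tested.

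Hepatocyte markers, the list for the cells that secrete ITIH4, ITIH3, CRP and LBP, summed to 43963 and 91064 CPM at baseline, 36674 to 71595 in controls, 56878 to 76477 in arterial and 31547 to 59965 in portal livers. The summed level therefore overlapped between baseline and every other group. Albumin reached 2160635 reads in a library, and APOA1, the next highest marker, 293967. ALB, APOA1 and TTR are also on the list of negative acute phase proteins, so the sum does not measure hepatocyte content alone. The part of the summed level in the levels of the secreted proteins was not tested.

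The infused livers were compared with ischemic controls, to ask whether infusion of the human cells altered the response 6 h later. All infused livers were pooled, whatever number of cells they held. The paper instead compared with controls those samples that had relatively high human B2M, its marker of the cells. B2M per library was not among the sample details used here. The 8 infused livers against the 3 controls gave log2 fold changes of 0.01 ± 0.42 for ITIH4, 0.02 ± 0.34 for ITIH3 and -0.33 ± 0.36 for CRP. LBP was at -0.03 ± 0.56, STAT3 at -0.28 ± 0.44, IL6R at 0.16 ± 0.37 and IL1R1 at -0.08 ± 0.46. All 7 were within 1 SE of 0 and had an adjusted p of 1.00 by edgeR, and exact permutation p-values ran from 0.218 for CRP to 0.958 for LBP. None of the 7 genes was without overlap between these groups in either direction, beside 0.225% of all genes that were higher and 0.34% that were lower in every infused liver. The median over the 7 genes was -0.03, with 3 higher and 4 lower, beside -0.02 over all genes. Without the 4 libraries apart the values were 0.37 for ITIH4, 0.36 for ITIH3, -0.34 for CRP and 0.06 for LBP. STAT3 was then at -0.08, IL6R at -0.17 and IL1R1 at 0.12, so LBP, IL6R and IL1R1 had turned.

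The widest of these intervals was that of LBP, from -1.23 to 1.17, and the narrowest that of ITIH3, from -0.71 to 0.75 on the log2 scale. A difference of that size from controls was therefore within what these libraries allow. Direction depended on single libraries for 6 of the 7 genes. LBP, for instance, was at 0.41 without control 1 and at -0.43 without control 2, and IL1R1 reached 0.31 without control 1. For CRP the value stayed between -0.40 and -0.24 with any 1 library left out.

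Arterial against portal infusion asked whether the route of the cells mattered. The paper reports less human B2M in the left lobe after portal than after arterial infusion, and no significant difference in the right lobe. The lobe of each library was not among the sample details used here. ITIH4 differed by -0.27 ± 0.44, ITIH3 by -0.30 ± 0.36 and IL6R by 0.38 ± 0.38 on the log2 scale. These 3 kept their direction with any 1 library left out, but their size did not hold. ITIH4 was at -0.08 and IL6R at 0.14 without arterial infusion 4, and ITIH3 at -0.13 without portal infusion 2. CRP, LBP, STAT3 and IL1R1 were at -0.03, -0.08, 0.12 and 0.26, and each of them took the opposite sign without 1 or another library. Without the 4 libraries apart the values were -0.29 for ITIH4, -0.62 for ITIH3, -0.24 for CRP and -0.48 for LBP, with STAT3 at -0.14, IL6R at 0.42 and IL1R1 at -0.22. Adjusted p-values were 1.00 for all 7 genes by edgeR, and groups overlapped for each of them. Every interval of the difference was wide, that of IL6R reaching from -0.44 to 1.19.

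**Figure D3:**
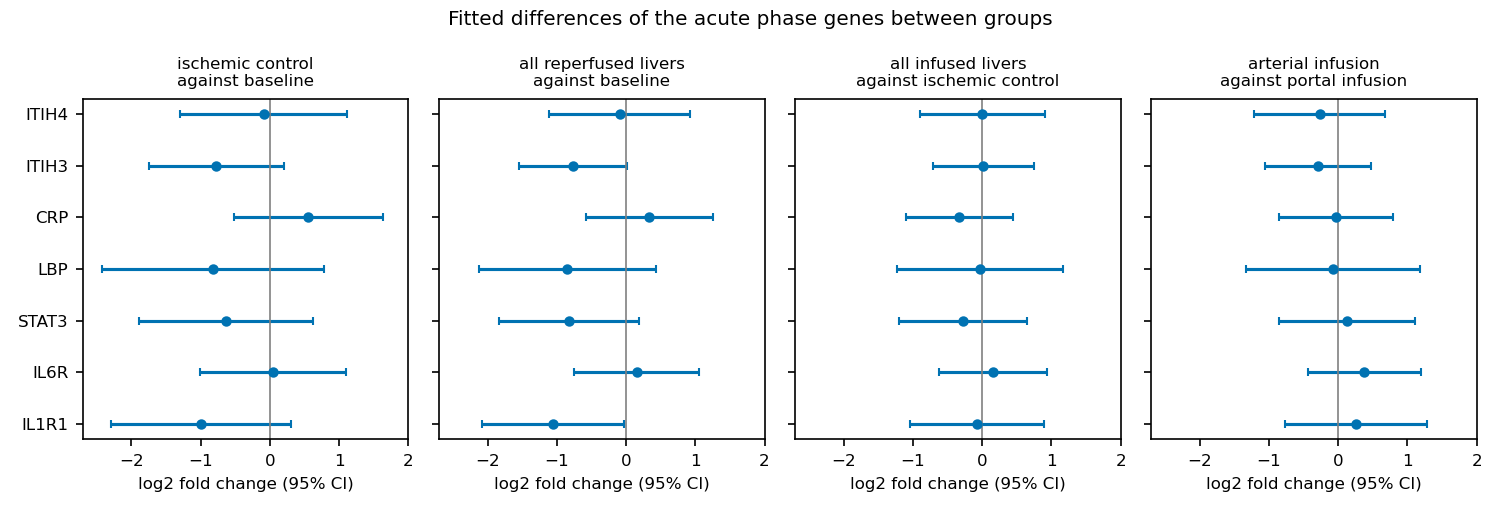
Log2 fold change of each of the 7 acute phase genes (points, edgeR) with its 95% confidence interval (bars) in 4 comparisons, the first-named group minus the second. Every interval crosses 0 but that of IL1R1 in all reperfused livers against baseline, which runs from -2.07 to -0.02 before adjustment for the number of genes.

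The 7 genes differed in how far their levels spread between libraries. The SD of the log2 level over the 13 libraries was 0.92 for LBP, 0.72 for IL1R1 and 0.65 for STAT3. It was 0.47 for IL6R, 0.44 for ITIH4, 0.43 for CRP and 0.42 for ITIH3. The median over 3450 genes with a mean level of at least 1000 was 0.61, which puts LBP, IL1R1 and STAT3 above that median and the other 4 genes below it. The more variable genes were thus those of the lipopolysaccharide carrier, the interleukin-1 receptor and STAT3.

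These 3 genes were low in libraries on the positive side of component 1. The 4 lowest levels of LBP (2605, 3178, 3274 and 4349) were those of the 4 libraries on its positive side, and so were the 4 lowest levels of STAT3 (8593, 9059, 10391 and 14870). For IL1R1 the 2 lowest levels, 9555 and 15489, belonged to portal infusion 1 and 4, followed by controls 2 and 3. ITIH4 did not share this order: of the same 4 libraries, control 2 and portal infusion 4 were near the top of the 13 libraries (564332 and 525498), below arterial infusion 3 alone, while arterial infusion 1 and portal infusion 1 were near the bottom (307563 and 362177), above control 3 and arterial infusion 4 alone. CRP in the same 4 libraries was 66311, 65171, 36742 and 67159. Reads of LBP per 100 reads of CRP were 4.79, 5.02, 7.09 and 6.48 in these 4 libraries and between 11.14 and 49.2 in the other 9. The 4 libraries were picked out by other genes of the same libraries and come from 3 groups, so these values are a description and were not tested.

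**Figure D4:**
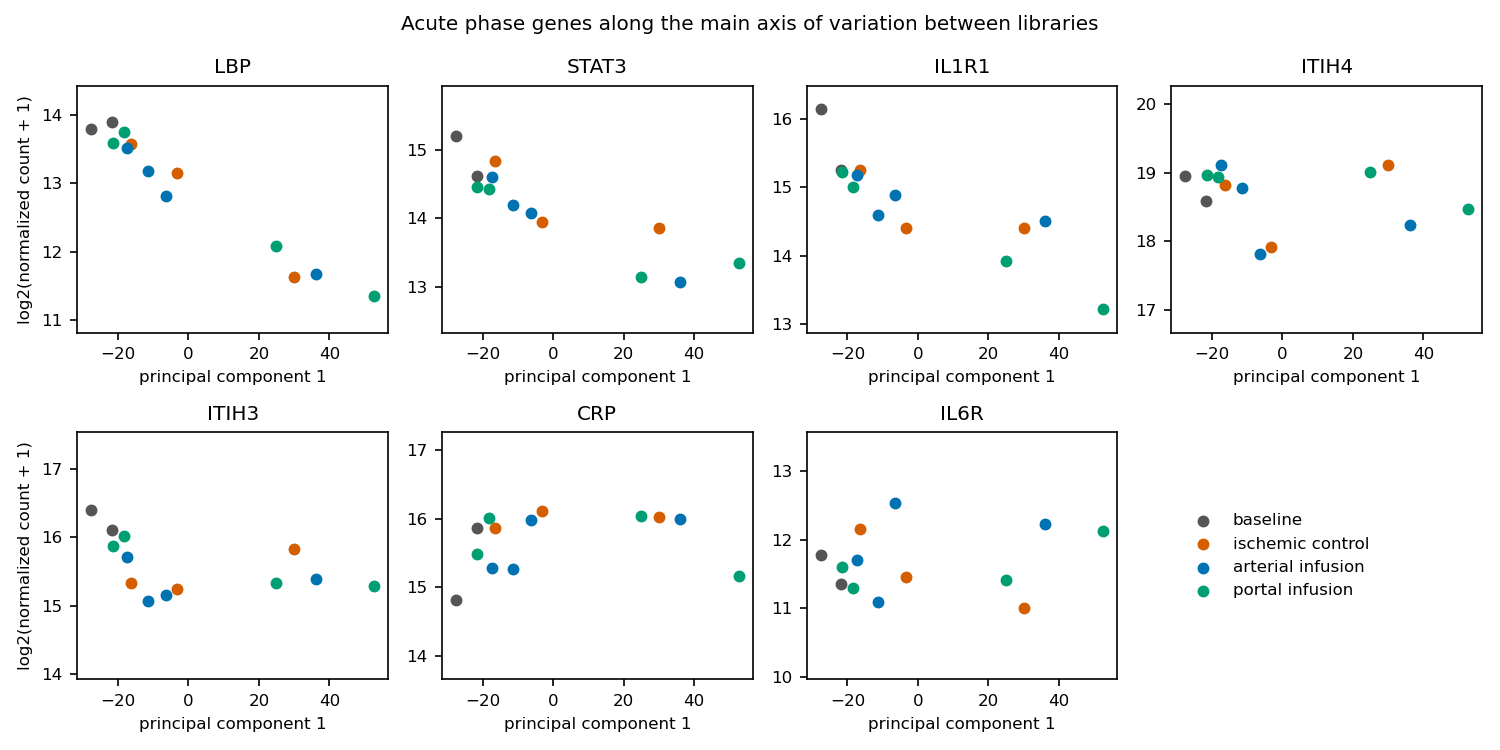
Level of each of the 7 genes, as log2(normalized count + 1), against principal component 1 of the 500 most variable other genes, 1 point per library, coloured by group. LBP, STAT3 and IL1R1 are lower toward the right, where ischemic control 2, arterial infusion 1, portal infusion 1 and portal infusion 4 lie, while ITIH4, CRP and IL6R show no such order.

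Genes with the most similar pattern over the 13 libraries were sought among 9145 genes with a symbol and a mean level of at least 100. By Pearson r of the log2 level, LBP was most like CDV3 (0.987), GLYR1 and GANAB, and STAT3 most like INTS7 (0.982), ZDHHC5 and THRAP3. IL1R1 was closest to SLC39A8 (0.965), DDX21 and HCFC2. ITIH4 was closest to EXOSC10 (0.907), RPP40 and NOP56, ITIH3 to CFB (0.897), NOL9 and NOL6, CRP to MAPKAPK3 (0.819), GNPDA1 and ZNF32, and IL6R to IWS1 (0.830), FAM118B and DAB2. CFB, complement factor B, is itself a positive acute phase protein. These r values are the highest of many, rest on libraries that share depth and position on component 1, and carry no p.

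The other genes of the ITIH family were described beside ITIH3 and ITIH4. ITIH1 and ITIH2 are the heavy chains of inter-alpha-inhibitor, whose light chain bikunin is encoded by AMBP. ITIH1 gave 51288 and 51098 normalized counts at baseline and 21158 to 44930 in the 11 reperfused livers, with no overlap. Of the 5 genes described here ITIH1 was the 1 that was lower in this way, beside 3.97% of all genes. Overlap on other scales was not examined for ITIH1. Its log2 fold change was -0.59 ± 0.45 in controls and -0.57 ± 0.36 in all reperfused livers against baseline, with adjusted p of 0.978 and 0.860 by edgeR. ITIH2, on chromosome 10 at 63635206 to 63672200, was at 37014 and 84765 at baseline and at 4462 to 39325 in reperfused livers. The fitted change of ITIH2 was -1.52 ± 0.81 in controls and -1.48 ± 0.62 in all reperfused livers (unadjusted p of 0.0817 and 0.0324, adjusted p of 0.978 and 0.860, edgeR), and without baseline 2 these were -0.85 and -0.81. AMBP was at 0.33 ± 0.53 in controls against baseline and at -0.01 without control 2. ITIH5 was at 0.51 ± 0.54, or 0.063 without control 3, and TNFAIP6, whose product transfers heavy chains to hyaluronan, at 1.28 ± 1.25 from at most 135 normalized counts in a library, or 0.71 without control 2. Of these 5 genes none passed the adjusted threshold, 3 were higher and 2 lower in controls than at baseline, and their median was 0.33.

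Other positive acute phase proteins had 17 of 24 listed genes in the table, all of them tested. None passed the adjusted threshold in controls against baseline, and none had an unadjusted p below 0.05, beside 4.37% of all genes. Of the 17, 8 were higher and 9 lower, with a median log2 fold change of -0.26 and a range from -1.28 to 1.23. C4BPA, which encodes the alpha chain of the complement inhibitor C4b-binding protein, had 10857 and 11540 normalized counts at baseline, beside 4559, 3248 and 6937 in controls, a log2 fold change of -1.18 ± 0.79. Ceruloplasmin (CP), the copper carrier, was at 63426 and 81780 at baseline and at 62634, 3429 and 20883 in controls, a change of -1.28 ± 1.28 that was -2.58 without control 1 and -0.76 without control 2. A2M, a broad protease inhibitor, was at -0.92 ± 0.81, and at -1.45 without control 1. Hemopexin (HPX), which binds free heme, was at 0.56 ± 0.57, and its sign turned without control 2 (-0.04). Haptoglobin (HP), the serum amyloid A genes SAA1, SAA2, SAA3 and SAA4, FGA and SERPINA3 had no row under their symbols and were not analysed here.

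All 12 negative acute phase proteins on the list were tested, 5 being higher and 7 lower in controls than at baseline, with a median of -0.54. None passed the adjusted threshold. Over the 7 lists together, 4 of the 78 tested genes had an unadjusted p below 0.05 by edgeR, beside 4.37% of all genes. All 4 were higher in controls, and the list of negative proteins held 1 of them. This was APOA2, an apolipoprotein of high density lipoprotein, with 2137 and 2691 normalized counts at baseline and 6671, 23419 and 3933 in controls. Its log2 fold change was 2.19 ± 0.73 (unadjusted p = 0.00905, adjusted p = 0.978, edgeR) and 1.17 without control 2. APOA1 was at 1.24 ± 0.61, or 0.71 without control 2. APOA4 was at 3.24 ± 1.76, and at 1.25 without control 2, where its count of 128839 was far above those of controls 1 and 3 (3936 and 20444). APOA4 was the 1 gene of these lists that DESeq2 called when fitted on the 5 libraries of this comparison alone (adjusted p = 0.0441), 1 of 78 list genes beside the 1.07% of all genes, and with all 13 libraries its adjusted p by DESeq2 was 0.676. SERPINA7, the thyroxine-binding globulin, was at -1.15 ± 0.59, and -0.43 without baseline 2. The 3 apolipoproteins named here thus had higher fitted levels, in the direction opposite to the class name, and none of them passed the adjusted threshold of edgeR. They were named for small p-values, and 7 of the 12 genes went the other way. Albumin was at -0.77 and transthyretin at 0.84 in controls against baseline.

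Interleukin-6 type cytokines, their receptors and signalling gave 20 of 20 genes tested, 10 higher and 10 lower in controls than at baseline, with a median of 0.04. None passed the adjusted threshold and 1 had an unadjusted p below 0.05, beside 4.37% of all genes. JUNB, an immediate early gene and STAT3 target, was at 3247 and 4643 normalized counts at baseline and at 9588, 15588 and 3852 in controls, a log2 fold change of 1.28 ± 0.53 (unadjusted p = 0.0305, adjusted p = 0.978, edgeR). Control 3 lay between the 2 baseline libraries, and without control 2 the value was 0.80. CEBPB, a transcription factor of acute phase genes, was at 1.47 ± 0.74, and SOCS1, a feedback inhibitor of cytokine signalling, at 1.08 ± 0.54, or 0.45 without control 2. TYK2, a Janus kinase, was at -1.13 ± 0.54.

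Of 16 interleukin-1 pathway genes 14 were tested, with 6 higher and 8 lower in controls and a median of -0.21, none past the adjusted threshold. NFKBIA, the inhibitor that NF-kappaB itself induces, was the 1 gene with an unadjusted p below 0.05, beside 4.37% of all genes. It had 727 and 609 normalized counts at baseline and 1343, 4290 and 1307 in controls, and no reperfused liver was below 978. Of the 14 genes NFKBIA was the 1 that was higher in every reperfused liver, beside 3.3% of all genes. Its log2 fold change was 1.76 ± 0.62 in controls against baseline (unadjusted p = 0.0123, adjusted p = 0.978, edgeR), and 1.02 without control 2. The decoy receptor IL1R2 was at 1.27 ± 0.69, or 0.70 without control 2, and the inhibitory kinase IRAK3 at -0.89 ± 0.61, which ran from -1.46 without baseline 2 to 0.00058 without baseline 1a. IL1A, at 3.46 ± 2.23, rested on the 273 normalized counts of control 2, without which the value was 0.13.

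The 4 partners of LBP in the recognition of lipopolysaccharide were all tested and had a median of 0.60 in controls against baseline, 3 being higher and 1 lower, with none past either threshold. CD14 was at 19436 and 17195 normalized counts at baseline and at 25943, 77782 and 20921 in controls, a log2 fold change of 1.15 ± 0.55 that was 0.39 without control 2. TLR2, TLR4 and LY96 were at 0.69 ± 0.54, -0.36 ± 0.50 and 0.51 ± 0.79. TLR2 was at 0.44 without baseline 1a, TLR4 at -0.14 without control 2, and LY96 at -0.038 without control 3. LBP itself had its lowest control level, 3178, in the library with the highest CD14. Macrophage markers (9 of 10 in the table, 7 above 0 in every library) summed to 736 and 1461 CPM at baseline, 1366 to 2063 in controls, 689 to 1251 in arterial and 808 to 1030 in portal livers. Neutrophil markers (6 of 10 in the table, 5 above 0 in every library, MPO at 0 in 9 libraries) summed to 43.7 and 45.5 at baseline, 56.3 to 356 in controls, 27.4 to 320 in arterial and 28.3 to 140 in portal livers. Control 2 had the highest neutrophil sum of all, 356, and its part in the values of NFKBIA, IL1A and CD14 was not tested.

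Glucocorticoids act together with interleukin-6 on acute phase genes, and the 6 genes of this axis were all tested. In controls against baseline 4 were higher and 2 lower, with a median of 0.39, and none passed the adjusted threshold. PER1, a clock gene that glucocorticoids induce, was the 1 gene with an unadjusted p below 0.05, beside 4.37% of all genes. It had 3028 and 1396 normalized counts at baseline and 4098, 10930.4 and 4890.3 in controls. Its log2 fold change was 1.55 ± 0.68 (unadjusted p = 0.0389, adjusted p = 0.978, edgeR). NR3C1, the glucocorticoid receptor, was at -0.93 ± 0.44, HSD11B1, which makes active cortisol from cortisone, at -0.84 ± 0.65, and TAT, a classical target in hepatocytes, at 0.78 ± 0.66. TAT was at 0.28 without control 1 and at 1.18 without baseline 2.

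**Figure D5:**
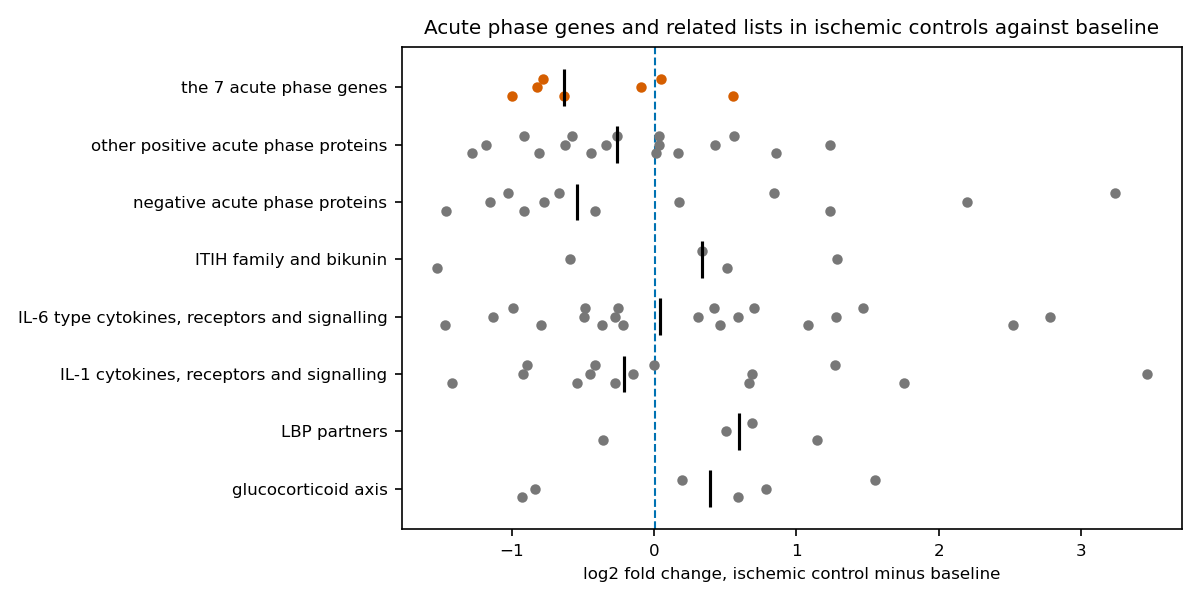
Log2 fold change of ischemic controls against baseline (x axis, edgeR) for the 7 acute phase genes (orange) and for the tested genes of 7 related lists (grey), 1 point per gene and a black line at the median. The medians run from -0.64 for the 7 genes to 0.60 for the partners of LBP, and no gene passed the adjusted threshold.

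In infused livers against ischemic controls none of the 78 tested genes on these 7 lists passed the adjusted threshold by edgeR or by DESeq2. An unadjusted p below 0.05 by edgeR was found for 6 of them, all lower in infused livers, beside 2.14% of all genes. They were IL11, JUNB, IL1A, CD14, FKBP5 and TAT, of which IL11 and FKBP5 are named here after their values were seen. JUNB had 9588, 15588 and 3852 normalized counts in controls and 3180 to 5744 in infused livers, so control 3 lay among the infused livers. The medians of the lists were -0.13 for other positive and -0.04 for negative acute phase proteins, 0.03 for the ITIH family, -0.10 for interleukin-6 and -0.003 for interleukin-1. They were -0.47 for the partners of LBP and -0.51 for the glucocorticoid axis, lists of 4 and 6 genes. Of all libraries, control 2 had the highest CD14 and PER1, and control 1 the highest TAT (78230 normalized counts). The part of single libraries in these medians was not tested.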

How the data were processed

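The authors isolated RNA (the labels name a miRNeasy kit, the paper's sequencing methods NucleoSpin), prepared non-directional poly-T libraries, aligned the reads by HISAT2 (assembly Sscrofa11.1), and deposited raw counts from FeatureCounts on Ensembl genes, not normalized. Reads of overlapping genes on the other strand cannot be told apart; RefSeq has other gene models within the spans of ITIH4 and IL1R1.

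Genes were tested by edgeR 4.0.16 under R 4.3.3 (quasi-likelihood test after filterByExpr and TMM, 4 groups in 1 fit of 13 libraries, Benjamini-Hochberg adjustment over 16481 genes, threshold 0.05). The fit was checked on simulated data whose changes were larger than any fitted for the 7 genes. That check does not cover changes of their size. DESeq2 1.42.0 gave size factors and an alternative test. Single genes were also compared by exact two-sided permutation of log2(normalized count + 1). Counting error alone is small at these depths; the common biological coefficient of variation was 0.729. Coordinates are RefSeq's. Members and lists were chosen with earlier results of these data known. From each list the 4 genes with the smallest p in controls against baseline were named; for likeness, the 3 with the highest r. No pair of replicates was a copy (smallest chi-square per gene 77.1).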

Additional observations from a re-analysis of the deposited data

Results flagged for a closer look

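In the 14 sets of 4 libraries examined, 1 value lay far from the other 3. ITIH4 in portal infusion 1 was at 362177 normalized counts, while the other 3 portal livers were between 500758 and 525498, so the gap to the nearest took up 0.849 of the range of the group. Portal infusion 1 is also the library farthest along component 1, at 52.7. Chance alone marks about 1 in 20 such groups, and the value lies within the range of ITIH4 in the arterial group.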

How the results depend on the processing

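No call on the 7 genes changed. Over 224 of their values under other settings, 216 kept their direction and side of the threshold and 8 turned; with 1 library left out 219 of 259 did and 40 turned, and 0 passed the threshold in either set. For CRP, LBP, STAT3 and IL1R1 the size of the difference of controls from baseline rested on 1 or 2 libraries. In all reperfused livers against baseline LBP ran from -0.996 to -0.719 with 1 library left out. The 2 baseline libraries limit every comparison with them. A fit without 1 of them assumes that the other varies like the remaining groups. Counting error is not the limit for the 7 genes, but TNFAIP6 and IL1A had few reads.

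The number of genes called was 0 in every comparison and moved with the tool and filter. In the order controls, all reperfused livers (both against baseline), infused livers, arterial livers, portal livers (against controls), arterial against portal and any difference, it was 8, 15, 1, 0, 4, 1 and 7 by DESeq2 on all libraries, and 30, 28, 19, 11, 14, 5 and 95 with no filter on low counts. DESeq2 on the compared libraries alone called 169 genes in controls and 15 in all reperfused livers against baseline, 3 in portal livers against controls and 0 in the other pairs. Without the 4 libraries apart 1 gene was called for infused livers, for arterial livers and for any difference. The cause was not tested.

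Of 16 pairs of libraries with the same replicate number 5 correlated above 0.1, within a range of -0.38 to 0.40. Pairs with different numbers were not set beside them, so whether the numbers pair the samples was not settled. With the replicate block 0 genes were called in each comparison, and IL6R turned to -0.10 in controls and -0.025 in all reperfused livers against baseline. The block moved the median over all genes to -0.14 in all reperfused livers against baseline, -0.15 in infused and -0.17 in portal livers against controls.

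Other turned directions were those of ITIH4 in infused livers with no filter (-0.00908) and, without the 4 libraries apart, HPX (-0.054) and AMBP (-0.025) in controls, LBP (0.064), IL6R (-0.17) and IL1R1 (0.12) in infused livers, and STAT3 (-0.14) and IL1R1 (-0.22) in arterial against portal livers. With 1 library left out, controls against baseline ran from -0.31 to 0.21 for ITIH4, -0.37 to 0.29 for IL6R, -0.038 to 0.84 for HPX, -1.46 to 0.00058 for IRAK3, -0.038 to 0.78 for LY96 and -0.0070 to 0.54 for AMBP. All reperfused livers against baseline ran from -0.26 to 0.054 for ITIH4, -0.14 to 0.98 for CRP and -0.043 to 0.33 for IL6R. Infused livers against controls ran from -0.29 to 0.22 for ITIH4, -0.12 to 0.18 for ITIH3, -0.43 to 0.41 for LBP, -0.47 to 0.15 for STAT3, -0.084 to 0.57 for IL6R and -0.25 to 0.31 for IL1R1. Arterial against portal livers ran from -0.20 to 0.10 for CRP, -0.39 to 0.30 for LBP, -0.13 to 0.36 for STAT3 and -0.022 to 0.60 for IL1R1. Levels per gene length were not computed, since no table of transcript lengths was used here.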
